A study of Mus musculus with 9 samples.

Results

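The genes described here are 40 genes of G2 and mitosis, taken from the tables by gene symbol. They cover the cyclins and Cdk1 with its activators, the mitotic kinases, the spindle checkpoint, the kinetochore, kinesin motors, spindle proteins, cytokinesis, and Top2a with Mki67. Of the 19072 gene identifiers in the tables, 40 of 40 members were found by symbol, all 40 were listed in all 9 libraries, and all 40 passed the filter on low counts that left 13682 genes for testing. The lowest member in any library was Gtse1 at 19.9 CPM (counts scaled to library size), so none of them had to differ between groups to be tested.

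The cells were 4T1-TGL, which derive from the mammary carcinoma line 4T1 of a BALB/c mouse and were kept in DMEM/F12. Ctrl is the line with wild-type Malat1 (3 libraries), and KO1 (3 libraries) and KO2 (3 libraries) are 2 Malat1 knockout lines. Malat1 is an abundant long noncoding RNA of nuclear speckles. The labels do not say how the deletion was made, whether each knockout line is 1 clone, or whether the 3 libraries of a line came from separate cultures, so the p-values rest on a spread among libraries that may be only technical. All 9 libraries share the same parental line and medium, and both knockout lines are compared with the same 3 Ctrl libraries.

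In a dividing cell these genes are switched on together as the cell leaves S phase, reach their peak in G2 and mitosis, and are silent in resting cells. Cyclin B and Cdk1 start mitosis, Aurora and Polo kinases build the spindle, the checkpoint holds the cell until each kinetochore is attached, and the anaphase-promoting complex then destroys the cyclins. Their promoters are known for a pair of short elements. These are the CCAAT box bound by NF-Y and the cell cycle homology element (CHR, TTTGAA) bound by the MuvB complex. B-Myb (Mybl2) and FoxM1 are recruited to that complex. In bulk RNA, more cells in G2 and mitosis and more RNA of these genes per cell cannot be told apart.

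The RefSeq promoter table of the build GRCm38.p6, which the files also use, held 34 of the 40 members, with 36 transcription starts. Ccna2, Cdc25c, Aurkb, Kif20a, Tpx2 and Dlgap5 had no entry. The 100 bases before the start are shown for 5 members that carry both elements there, to show how they are arranged, and for 2 members with no match. Sequences run 5′ to 3′ on the gene's strand and end at the base before the start. For Top2a the listed start lies inside the gene span, which ends at 99024199, so its stretch overlaps that span. Capitals mark CCAAT or its reverse complement ATTGG and TTTGAA or its reverse complement TTCAAA.
Cdk1 (chr10:69352913-69353012, minus strand): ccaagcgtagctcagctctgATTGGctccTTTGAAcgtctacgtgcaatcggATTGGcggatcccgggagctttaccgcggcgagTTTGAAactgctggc
Ube2c (chr2:164769829-164769928, plus strand): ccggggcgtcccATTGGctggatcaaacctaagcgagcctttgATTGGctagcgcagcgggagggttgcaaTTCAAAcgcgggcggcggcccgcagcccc
Top2a (chr11:99024190-99024289, minus strand): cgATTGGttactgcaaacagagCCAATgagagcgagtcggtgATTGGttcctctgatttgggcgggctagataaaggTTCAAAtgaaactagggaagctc
Cdc20 (chr4:118437344-118437443, minus strand): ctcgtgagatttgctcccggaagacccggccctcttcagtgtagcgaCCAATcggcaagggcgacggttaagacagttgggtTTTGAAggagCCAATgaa
Kif11 (chr19:37376282-37376381, plus strand): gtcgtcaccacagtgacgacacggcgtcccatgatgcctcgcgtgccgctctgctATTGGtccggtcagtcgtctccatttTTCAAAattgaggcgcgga
Nusap1 (chr2:119618198-119618297, plus strand): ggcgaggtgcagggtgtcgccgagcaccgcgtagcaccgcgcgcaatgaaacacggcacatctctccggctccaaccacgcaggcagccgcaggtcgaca
Nuf2 (chr1:169531465-169531564, minus strand): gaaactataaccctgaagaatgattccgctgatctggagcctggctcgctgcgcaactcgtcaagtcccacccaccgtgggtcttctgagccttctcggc

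Over the whole window of 300 bases (250 before to 50 after each start), CCAAT on either strand was found at 29 of the 36 member starts, 80.6%, against 37.4% of all 32851 starts in the table. TTTGAA on either strand was found at 25 of them, 69.4%, against 17.9%. Both were present at 21 starts, 58.3%, against 6.95% of all. CCAAT occurred at least 2 times at 21 starts, 58.3%, against 11.7%. TTTGAA lay within 50 bases of 22 member starts, 61.1%, against 4.94% of all starts. No match of one element overlapped a match of the other. The promoters of Nuf2, Nusap1 and Birc5 held neither set of letters in this window, which says nothing about the binding of either factor. At 37 starts of a list of G1/S and DNA replication genes, CCAAT was found at 59.5% and TTTGAA at 10.8%, so the second element was more frequent among the G2 and mitosis genes by count. Among the 32 starts of members called higher in KO2, 87.5% had CCAAT and 68.8% had TTTGAA. The 4 starts of the other members had 25.0% and 75.0%, a number too small to compare.

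**Figure D1:**
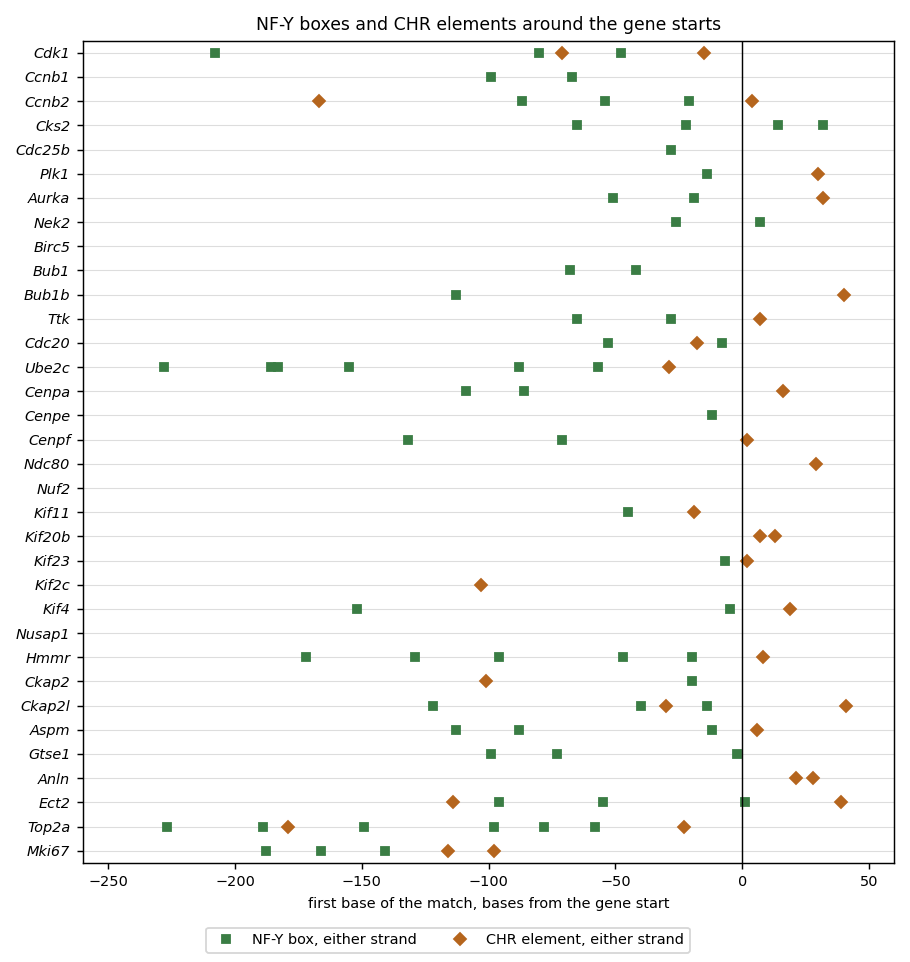
Matches of the NF-Y box (CCAAT) and the CHR element (TTTGAA) on either strand in the promoters of the 34 members with an entry, 1 row per gene at its first listed start, with the distance of the match from the gene start in bases on the horizontal axis. CHR elements cluster around the start line, and the rows of Birc5, Nuf2 and Nusap1 are empty.

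The libraries held between 30655924 and 35406395 expected counts. Malat1 was at 462 ± 54.9 CPM in Ctrl (SD, n = 3), 3.40 ± 0.669 CPM in KO1 (SD, n = 3; 0.735% of Ctrl) and 126 ± 31.5 CPM in KO2 (SD, n = 3; 27.2%). Of 7 epithelial carcinoma markers, Krt8 and Krt18 made up nearly the whole sum of 700.1 to 718 CPM in Ctrl, 1171 to 1404 in KO1 and 2115 to 2315 in KO2, while Epcam, Cdh1, Cldn3, Cldn4 and Cldn7 were under 1 CPM in every library. Of 6 fibroblast markers, 4 were tested, of which Pdgfra, Dcn and Col1a1 were lower and Pi16 higher in KO2, and Dcn and Col1a1 lower and Pi16 higher in KO1. Their sum, mostly Pdgfra, was 296 to 305 CPM in Ctrl, 258 to 279 in KO1 and 146 to 152 in KO2. The 7 macrophage and neutrophil markers summed to 23.8 to 25.1 CPM in Ctrl, 30.1 to 41.2 in KO1 and 25.4 to 28.6 in KO2. Most of this was Cd68, higher in KO1 (log2 fold change 0.89) and lower in KO2 (-0.42), and S100a8, while Ptprc, Adgre1, Csf1r, Itgam and Lyz2 were under 1 CPM in every library. Lyz2 was at 0 in Ctrl and was called higher in KO2 (log2 fold change 6.2). Its log2 fold change in KO1, 6.3, was of the same size but was not called. The 3 listed T and NK cell markers summed to 2.73 to 5.26 CPM in Ctrl, 3.78 to 5.17 in KO1 and 1.63 to 2.26 in KO2, nearly all of it Lck, which was lower in KO2 (-1.08), with Cd3e at 0 in 8 of 9 libraries. The part of such differences in the results on the cell cycle genes was not tested.

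In KO2, 35 of the 40 genes were higher than in Ctrl and 0 were lower, where 24.6% of all tested genes were called higher, 29.5% lower and 54.1% in either direction (edgeR quasi-likelihood test, Benjamini-Hochberg adjusted p under 0.05 over all tested genes). The median log2 fold change of the 40 was 0.57, or 1.49-fold, against -0.03 over all tested genes. The changes ran from -0.06 (Ndc80) to 1.07 (Kif20a), and 2 genes, Cdc25b and Kif20a, reached 2-fold. All 3 KO2 libraries lay above all 3 Ctrl libraries for 36 of the 40, against 30.2% of tested genes. In KO1, 9 of the 40 were higher and 0 lower, against 15.6% and 14.9% of all tested genes (30.5% in either direction). The median log2 fold change there was 0.13 against -0.00, and the range was -0.20 (Plk1) to 0.61 (Kif23). All 3 KO1 libraries lay above Ctrl for 11 genes, against 21.8% of tested genes. The share of members called higher, 87.5% in KO2 and 22.5% in KO1, stood much nearer to the share over all genes in KO1.

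The counts moved with single libraries and with the scaling. Without Ctrl replicate 2, 31 members were higher in KO2 and 7 in KO1, and without KO1 replicate 1 the count in KO1 was 12. With total count scaling 30 members were higher in KO2, and the calls of Ttk, Cenpe, Tpx2, Ckap2l and Mki67 were lost (edgeR adjusted p from 0.0665 to 0.103). Leaving out Ctrl replicate 2 took the KO1 median to 0.07, and leaving out KO1 replicate 2 took it to 0.06. Without KO1 replicate 2, 1 member, Ccnb1, was called lower (log2 fold change -0.24, edgeR adjusted p = 0.0308). Within groups, the members moved together. Ctrl replicate 1 was the highest control for 36 of the 40 (32.3% of all tested genes) and Ctrl replicate 2 the lowest for 33 (37.8%). KO1 replicate 2 was the highest KO1 library for 34 (40.0%) and KO1 replicate 1 the lowest for 31 (39.9%). KO2 replicate 1 was the lowest KO2 library for 28 (31.2%). The labels give no property of the libraries that follows this order.

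**Figure D2:**
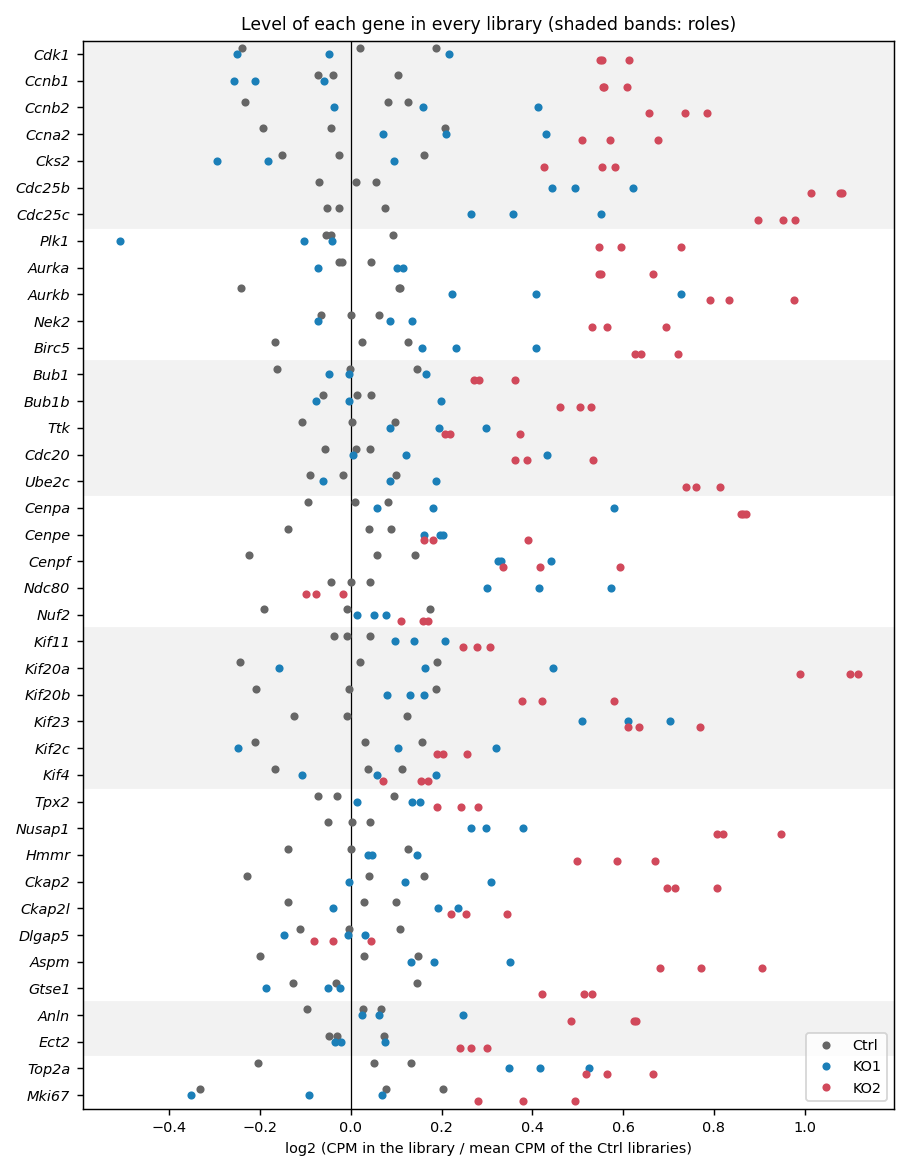
Level of each of the 40 genes in each of the 9 libraries as log2 of its CPM over the mean CPM of the 3 Ctrl libraries on the horizontal axis, with genes in rows, roles in shaded bands, and 1 point per library coloured by group. The KO2 points lie right of all Ctrl points in 36 of 40 rows, while Ctrl replicate 2 is the lowest control for 33 of 40 rows and KO1 replicate 2 the highest KO1 library for 34.

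The first group is the switch into mitosis, cyclin A2, the B cyclins and Cdk1 with the proteins that activate it. Of these 7 genes, 7 were higher in KO2, with log2 fold changes from 0.52 to 1.06, and 2 were higher in KO1. Cdc25b, a phosphatase that removes the inhibitory phosphates from Cdk1 at the start of mitosis (chromosome 2, 131186436 to 131198511), was at 94.1, 103 and 99.6 CPM in Ctrl, 134, 152 and 139 CPM in KO1, and 199, 208 and 209 CPM in KO2. The groups did not overlap and stood in the order Ctrl, KO1, KO2. Its log2 fold change was 0.52 ± 0.068 in KO1 (SE; edgeR adjusted p = 0.000185), and for KO2 it was 1.06 ± 0.068 (SE; edgeR adjusted p = 2.7e-07). Cdc25c, a second phosphatase of the same family, was at 34.3, 31.4 and 31.9 CPM in Ctrl, 39.1, 47.7 and 41.7 CPM in KO1, and 60.6, 63.0 and 64.1 CPM in KO2. It showed the same order without overlap, with log2 fold changes of 0.40 in KO1 (edgeR adjusted p = 0.00412) and 0.94 in KO2 (edgeR adjusted p = 3.63e-06).

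The cyclins behaved otherwise in KO1. Ccnb1, which encodes cyclin B1, the main partner of Cdk1 in mitosis, was at 170, 149.8 and 153 CPM in Ctrl, 136, 151 and 132 CPM in KO1, and 231.5, 232 and 240.4 CPM in KO2. Its KO1 libraries overlapped Ctrl and its KO2 libraries were above both. The log2 fold change was 0.57 ± 0.074 in KO2 (SE; edgeR adjusted p = 6.6e-05) and -0.17 in KO1, which did not pass (edgeR adjusted p = 0.101). Cks2, a small subunit that binds Cdk1, was at 55.7, 44.8 and 48.9 CPM in Ctrl, 43.9, 53.2 and 40.6 CPM in KO1, and 66.9, 73.1 and 74.6 CPM in KO2. The log2 fold change of Cks2 was 0.52 in KO2 (edgeR adjusted p = 0.00209) and -0.12 in KO1 (edgeR adjusted p = 0.456). Cdk1 itself, at 164.6, 122.5 and 147 CPM in Ctrl, reached 212, 212 and 221 CPM in KO2 (log2 fold change 0.57, edgeR adjusted p = 0.00263). In KO1, at 121.5, 168 and 139.9 CPM, Cdk1 covered the whole range of Ctrl. Ccnb2 and Ccna2, which encode cyclin B2 and cyclin A2, were higher in KO2 (0.73 and 0.59), and in KO1 stood at 0.19 and 0.24, neither of which passed, although Ccna2 did without Ctrl replicate 1 (0.36, edgeR adjusted p = 0.0359).

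Of the 5 genes of the Aurora, Polo and NIMA kinases and survivin, 5 were higher in KO2 (0.59 to 0.87) and 2 in KO1. Plk1, the Polo kinase that drives centrosome maturation and spindle assembly, was at 134, 122 and 121 CPM in Ctrl, 88.3, 122 and 117 CPM in KO1, and 184, 189.8 and 208 CPM in KO2. The KO2 libraries lay above all others, and KO1 overlapped Ctrl with replicate 1 the lowest. The log2 fold change of Plk1 was 0.63 ± 0.11 in KO2 (SE; edgeR adjusted p = 0.000692) and -0.20 ± 0.11 in KO1 (SE; edgeR adjusted p = 0.194). Aurka, the Aurora kinase of the spindle poles, was at 154, 147 and 146 CPM in Ctrl, 142, 161 and 159.8 CPM in KO1, and 218, 218 and 236 CPM in KO2. Its log2 fold change in KO2 was 0.59 (edgeR adjusted p = 3.67e-05), and Nek2, a kinase of centrosome separation, had 0.60 (edgeR adjusted p = 6.31e-05), while both stood at 0.05 in KO1 and did not pass.

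Aurkb and Birc5 encode 2 subunits of the chromosomal passenger complex, the kinase Aurora B and survivin, which correct faulty attachments at the centromere. Aurkb was at 71.8, 56.4 and 71.8 CPM in Ctrl, 77.8, 110.4 and 88.4 CPM in KO1, and 115, 119 and 131 CPM in KO2. Birc5 was at 155, 126 and 144 CPM in Ctrl, 158, 188 and 167 CPM in KO1, and 219, 234 and 221 CPM in KO2. The groups did not overlap for either gene and stood in the order Ctrl, KO1, KO2. In KO2 the log2 fold changes were 0.87 (edgeR adjusted p = 0.000268) and 0.66 (edgeR adjusted p = 9.49e-05). In KO1 they were 0.47 ± 0.13 (SE; edgeR adjusted p = 0.0205) and 0.27 ± 0.089 (SE; edgeR adjusted p = 0.04). The KO1 call of Aurkb was lost without Ctrl replicate 2 (0.36, edgeR adjusted p = 0.0656), without KO1 replicate 2 (0.31, edgeR adjusted p = 0.0591), with the 2 groups alone (edgeR adjusted p = 0.0522) and with a replicate block (edgeR adjusted p = 0.0501). That of Birc5 was lost without 7 of the 9 single libraries, all but Ctrl replicate 1 and KO1 replicate 1, with log2 fold changes of 0.19 to 0.29 and edgeR adjusted p from 0.0534 to 0.13, as well as with the 2 groups alone (0.0966) and with a replicate block (0.0927).

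**Figure D3:**
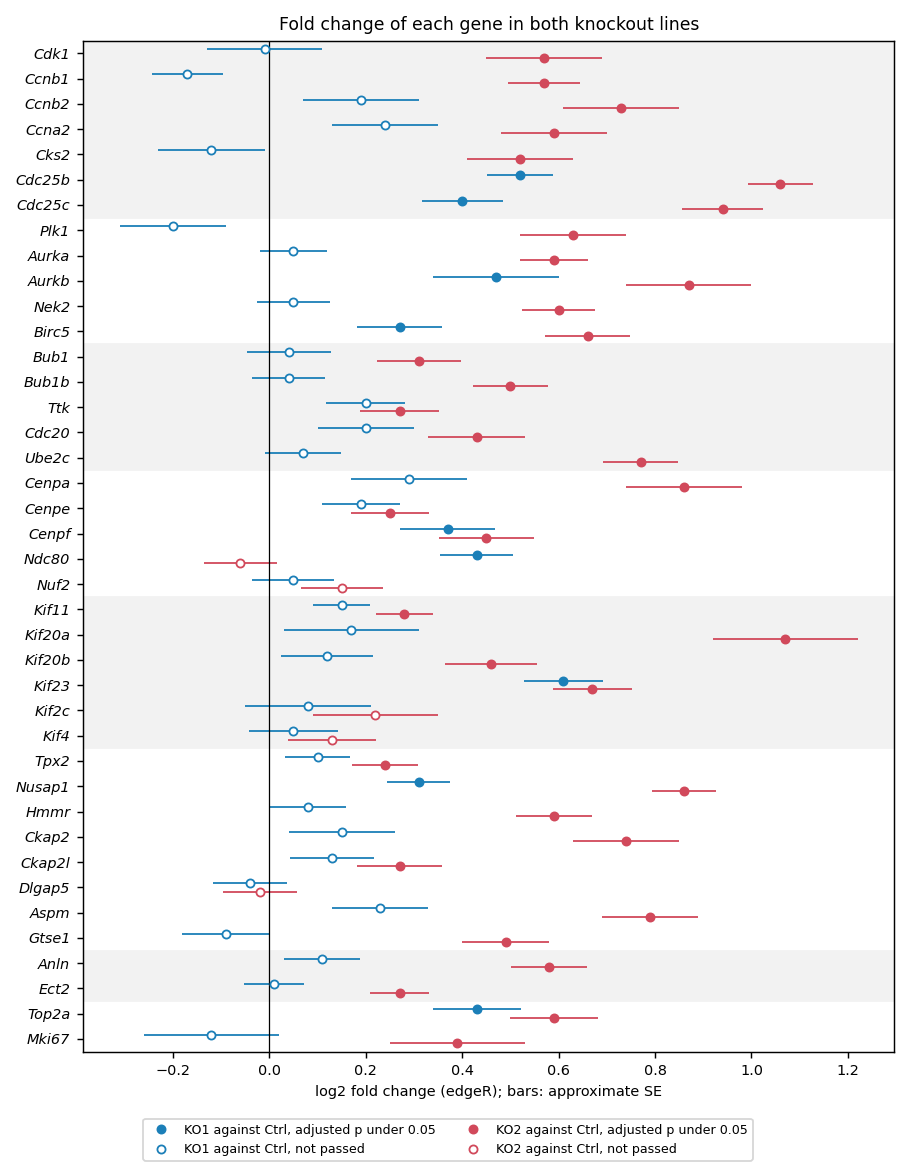
Log2 fold change against Ctrl of each of the 40 genes in KO1 and KO2, in rows by role, on the horizontal axis, with bars of 1 approximate SE and filled symbols for an edgeR adjusted p under 0.05. The KO2 values run from -0.06 to 1.07 with 35 filled, and the KO1 values from -0.20 to 0.61 with 9 filled.

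All 5 genes of the spindle checkpoint and of anaphase were higher in KO2 (0.27 to 0.77), and 0 were called in KO1, where the values ran from 0.04 to 0.20. Ube2c, the ubiquitin-conjugating enzyme of the anaphase-promoting complex (chromosome 2, 164769929 to 164772902), whose promoter stretch is printed above, was at 150.4, 163 and 143 CPM in Ctrl, 146, 173 and 162 CPM in KO1, and 258, 254 and 267 CPM in KO2. Ctrl and KO1 overlapped, and KO2 stood above both (log2 fold change 0.77 ± 0.078, SE; edgeR adjusted p = 1.08e-05). Bub1b, which encodes the checkpoint protein BubR1, had 0.50 in KO2 (edgeR adjusted p = 0.00025), and Cdc20, the activator of the anaphase-promoting complex, 0.43 (edgeR adjusted p = 0.00417). The checkpoint kinase gene Bub1 had 0.31 (edgeR adjusted p = 0.0117). Ttk, the kinase Mps1 at the top of the checkpoint, had 0.27 (edgeR adjusted p = 0.017), a call that was lost without Ctrl replicate 2 (0.22, edgeR adjusted p = 0.0619) and without KO2 replicate 2 (0.22, edgeR adjusted p = 0.0735). In KO1, Ttk and Cdc20 each passed without KO1 replicate 1 (0.25, edgeR adjusted p = 0.0436, and 0.29, edgeR adjusted p = 0.0398).

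The 5 centromere and kinetochore genes did not move as 1 group. In KO2, 3 were higher, and in KO1, 2 were higher, of which Cenpf was called in both lines and Ndc80 in KO1. Ndc80, the microtubule-binding subunit of the outer kinetochore (chromosome 17, 71496100 to 71526857), was at 137, 145 and 141 CPM in Ctrl, 210.1, 174 and 188 CPM in KO1, and 134, 139.5 and 132 CPM in KO2. The KO1 libraries lay above both other groups, and KO2 overlapped Ctrl. The log2 fold change of Ndc80 was 0.43 ± 0.075 in KO1 (SE; edgeR adjusted p = 0.00121), and for KO2 it was -0.06 ± 0.075 (SE; edgeR adjusted p = 0.504). Nuf2, its partner in the same complex, had 0.05 in KO1 and 0.15 in KO2 (edgeR adjusted p = 0.165), and passed in KO2 without Ctrl replicate 1 (0.24, edgeR adjusted p = 0.0229).

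Cenpa, the histone variant that marks the centromere, was at 78.7, 69.7 and 74.8 CPM in Ctrl, 77.4, 111 and 84.4 CPM in KO1, and 135.0, 135 and 136 CPM in KO2. Its log2 fold change was 0.86 in KO2 (edgeR adjusted p = 9.1e-05), and 0.29 in KO1 (edgeR adjusted p = 0.0789), which passed without KO1 replicate 1 (0.39, edgeR adjusted p = 0.015). Cenpf, a large protein of the outer kinetochore, was at 358, 278 and 338 CPM in Ctrl, 407, 441 and 409 CPM in KO1, and 409.8, 489.8 and 433.5 CPM in KO2. Both lines lay above Ctrl and overlapped each other, with 0.37 in KO1 (edgeR adjusted p = 0.0156) and 0.45 in KO2 (edgeR adjusted p = 0.00262). The kinetochore motor Cenpe had 0.25 in KO2 (edgeR adjusted p = 0.0227), lost without Ctrl replicate 2 (0.18, edgeR adjusted p = 0.0828) and without KO2 replicate 2 (0.17, edgeR adjusted p = 0.102), and with a replicate block (edgeR adjusted p = 0.0556).

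Of the 6 kinesin motors, 4 were higher in KO2 and 1 in KO1. Kif20a, a motor of the central spindle that is needed for cytokinesis, had the largest change of the 40 in KO2. It was at 221, 164 and 197 CPM in Ctrl, 174, 264 and 217 CPM in KO1, and 385, 415 and 420.2 CPM in KO2. The KO2 libraries were above all others, and the wide KO1 range overlapped Ctrl. The log2 fold change was 1.07 ± 0.15 in KO2 (SE; edgeR adjusted p = 0.000137) and 0.17 ± 0.14 in KO1 (SE; edgeR adjusted p = 0.407). Kif23, a motor of the same central spindle and a subunit of centralspindlin (chromosome 9, 61917277 to 61946810), was at 186.5, 157 and 170.1 CPM in Ctrl, 244, 279 and 261 CPM in KO1, and 266, 292 and 261 CPM in KO2. Both lines lay above Ctrl and overlapped each other. Its log2 fold change was 0.61 ± 0.082 in KO1 (SE; edgeR adjusted p = 0.000236), the largest of the 40 in that line, and 0.67 ± 0.082 in KO2 (SE; edgeR adjusted p = 4.59e-05). Kif20b had 0.46 in KO2 (edgeR adjusted p = 0.00195) and Kif11, which slides the spindle poles apart, 0.28 (edgeR adjusted p = 0.0022). In KO1, Kif11 stood at 0.15 and did not pass (edgeR adjusted p = 0.0789). It did with DESeq2 (DESeq2 adjusted p = 0.0311), with total count scaling and in both limma runs on FPKM. The microtubule-depolymerising Kif2c (0.22, edgeR adjusted p = 0.186) and the chromokinesin Kif4 (0.13, edgeR adjusted p = 0.24) did not pass in KO2, and Kif2c did with the 2 groups alone (0.23, edgeR adjusted p = 0.0485).

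Of the 8 spindle microtubule proteins, 7 were higher in KO2 and 1 in KO1. Nusap1, which bundles spindle microtubules near the chromosomes (chromosome 2, 119618298 to 119650165), was at 156, 147 and 152 CPM in Ctrl, 182, 197 and 187 CPM in KO1, and 268, 292.5 and 265 CPM in KO2. The groups did not overlap and stood in the order Ctrl, KO1, KO2, with 0.31 in KO1 (edgeR adjusted p = 0.00383) and 0.86 in KO2 (edgeR adjusted p = 1.08e-06). Its promoter stretch printed above had no match to either element. Aspm, a spindle pole protein, had 0.79 in KO2 (edgeR adjusted p = 5.57e-05), the cytoskeleton-associated Ckap2 0.74 (edgeR adjusted p = 0.000155), Hmmr 0.59 (edgeR adjusted p = 0.000101) and Gtse1 0.49 (edgeR adjusted p = 0.000896). Tpx2, which activates Aurora A on the spindle, had 0.24 (edgeR adjusted p = 0.0124), and did not pass with total count scaling (0.16, edgeR adjusted p = 0.0665). Ckap2l had 0.27 (edgeR adjusted p = 0.021), lost without Ctrl replicate 2 (0.21, edgeR adjusted p = 0.0776) and without KO2 replicate 3 (0.24, edgeR adjusted p = 0.0772). Dlgap5, a spindle assembly factor, was at 134, 115 and 124 CPM in Ctrl, 112, 127 and 124 CPM in KO1, and 117, 128 and 121 CPM in KO2. The 3 groups overlapped, and its log2 fold changes of -0.04 and -0.02 did not pass.

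The cytokinesis genes Anln and Ect2 were both higher in KO2. Anln, which encodes the contractile ring scaffold anillin, was at 707, 631 and 688 CPM in Ctrl, 705, 801 and 688 CPM in KO1, and 946, 1045 and 1041 CPM in KO2 (log2 fold change in KO2 0.58, edgeR adjusted p = 0.000105). Ect2, the activator of RhoA at the division plane, had 0.27 (edgeR adjusted p = 0.00378). In KO1 they stood at 0.11 and 0.01, and neither passed.

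Top2a, the topoisomerase that untangles sister chromatids (chromosome 11, 98992947 to 99024199), was the member with the most counts. It was at 1431, 1133 and 1353 CPM in Ctrl, 1663, 1879 and 1744 CPM in KO1, and 1871, 2073 and 1931 CPM in KO2. Both lines were above Ctrl and overlapped each other, with log2 fold changes of 0.43 ± 0.091 in KO1 (SE; edgeR adjusted p = 0.00397), and for KO2 it was 0.59 ± 0.091 (SE; edgeR adjusted p = 0.000272). Mki67, the gene of the proliferation marker Ki-67, was at 1160.0, 801 and 1064 CPM in Ctrl, 789.5, 1057 and 946 CPM in KO1, and 1225, 1420.0 and 1312 CPM in KO2. Its KO1 value of -0.12 did not pass (edgeR adjusted p = 0.569). The KO2 value of 0.39 passed (edgeR adjusted p = 0.0362) but was lost without Ctrl replicate 2 (0.25, edgeR adjusted p = 0.106), Ctrl replicate 3 (0.43, 0.0568), KO1 replicate 3 (0.39, 0.0509), KO2 replicate 2 (0.33, 0.116) or KO2 replicate 3 (0.39, 0.0771), and with a replicate block (edgeR adjusted p = 0.0741).

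Called higher in both lines were 8 of the 40, Cdc25b, Cdc25c, Aurkb, Birc5, Cenpf, Kif23, Nusap1 and Top2a. Over all tested genes 863, or 6.31%, were called higher in both. The 2 comparisons share their control libraries, so this count is no independent agreement of the lines.

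The knockout lines were also compared directly. KO2 was higher than KO1 for 26 of the 40 and lower for 1, against 25.5% and 29.5% of all tested genes (55.0% in either direction), with a median log2 fold change of 0.43 against -0.02. All 3 KO2 libraries were above all 3 KO1 libraries for 29, against 29.5% of tested genes. All 7 genes of the cyclin group and all 5 of the kinase group were higher in KO2 than in KO1, and the largest differences were those of Kif20a (0.90, edgeR adjusted p = 0.000429), Plk1 (0.83, edgeR adjusted p = 9.18e-05), Ccnb1 (0.75, edgeR adjusted p = 8.26e-06), Ube2c (0.70, edgeR adjusted p = 2.23e-05) and Cks2 (0.64, edgeR adjusted p = 0.000544). Ndc80 was the 1 gene lower in KO2 (-0.50, edgeR adjusted p = 0.000217). Kif23 (0.06, edgeR adjusted p = 0.538), Cenpf (0.08, edgeR adjusted p = 0.492) and Top2a (0.15, edgeR adjusted p = 0.175), which were higher than Ctrl in both lines, did not differ by a call between the lines. Among the calls between the lines, those of Ccna2, Aurkb and Bub1 were lost without KO1 replicate 1 (0.26, 0.29 and 0.24, edgeR adjusted p = 0.0806, 0.0765 and 0.0567) and without KO1 replicate 3 (0.33, 0.37 and 0.22, edgeR adjusted p = 0.0719, 0.0749 and 0.0936). Ccna2, Bub1 and Kif20b also lost theirs without KO2 replicate 2 (0.35, 0.24 and 0.28, edgeR adjusted p = 0.0505, 0.0765 and 0.0517), and Ccna2 and Aurkb without KO2 replicate 3 (0.30 and 0.35, edgeR adjusted p = 0.0833 and 0.0827). With a replicate block, Ccna2 (edgeR adjusted p = 0.0569) and Bub1 (edgeR adjusted p = 0.051) lost theirs. With total count scaling, Ccna2 (0.24), Aurkb (0.30), Bub1 (0.16), Kif20b (0.23) and Ect2 (0.15) did not pass (edgeR adjusted p from 0.056 to 0.144), nor did they on FPKM. Cdc20 (0.23, edgeR adjusted p = 0.072) passed without KO1 replicate 2 (0.39, edgeR adjusted p = 0.00119), and Kif11 (0.13, edgeR adjusted p = 0.0852) without KO1 replicate 1 (0.16, edgeR adjusted p = 0.0465).

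Summed over the 40 genes, the level was 9525, 7911 and 8903 CPM in Ctrl, 9239, 10707 and 9817 CPM in KO1, and 11982, 12966 and 12565 CPM in KO2. This is 0.878% of the library size after TMM scaling in Ctrl, 0.992% in KO1 and 1.25% in KO2. Without TMM scaling the mean sums were 8877 CPM in Ctrl, 10232 in KO1 and 11982 in KO2. The KO1 libraries overlapped Ctrl, and the KO2 libraries were above all others. The ratio to Ctrl was 1.13 in KO1 (exact permutation test, two-sided p = 0.2, n = 3 each) and 1.42 in KO2 (exact permutation test, two-sided p = 0.1, n = 3 each), and 0.1 is the smallest p that 3 against 3 allows. KO2 over KO1 was 1.26 (exact permutation test, two-sided p = 0.1, n = 3 each). Top2a made up 14.9% and Mki67 11.5% of the sum in Ctrl, and without both the ratios were 1.12, 1.43 and 1.28.

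By role, the ratio of summed CPM in KO2 over Ctrl was highest for the cyclin group (1.59) and the kinase group (1.57) and lowest for the kinetochore group (1.25). In KO1 the order was another one. The kinetochore group, at 1068, 906 and 1022 CPM in Ctrl and 1201, 1240.3 and 1196 CPM in KO1, had the ratio 1.21 and was the 1 role of 8 whose KO1 libraries all lay above Ctrl. For that role KO2 stood at 1.03 times KO1, and the 2 lines overlapped. The other 7 roles had ratios from 1.06 to 1.17 in KO1 and overlapped Ctrl.

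**Figure D4:**
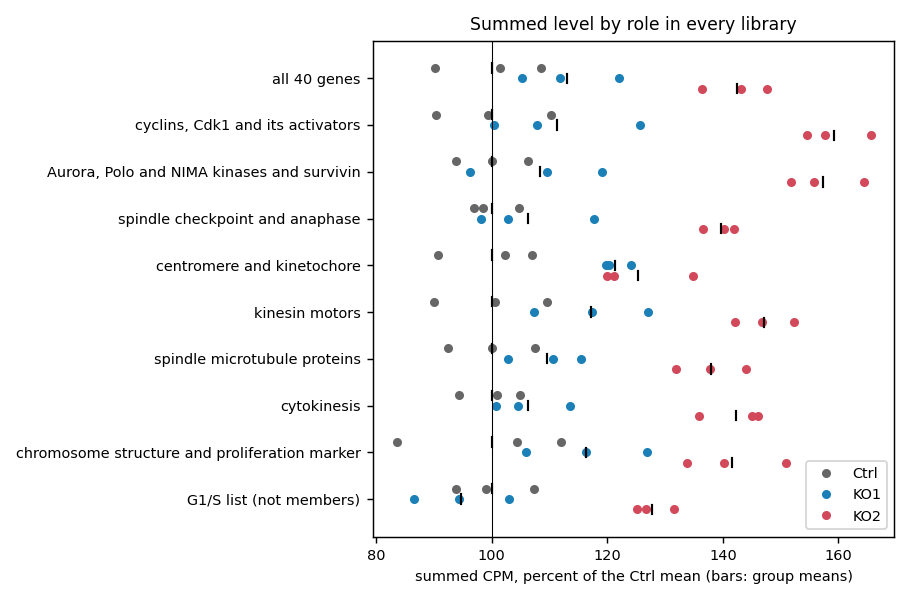
Summed CPM of the members of each role in each library, in percent of the mean of the 3 Ctrl libraries on the horizontal axis, with points for libraries, short bars for group means, and the G1/S list in the last row. KO2 points lie above Ctrl in every role, from 1.25 times in the kinetochore genes to 1.59 times in the cyclins, and KO1 points lie above all Ctrl points in the kinetochore genes.

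Levels of different genes were compared per transcript length, as FPKM. The median over the 40 was 54.5 FPKM in Ctrl, 60.1 in KO1 and 75.1 in KO2, against 10.1, 10.2 and 9.12 over all tested genes. Top2a was the highest in every group (251 ± 30.5 FPKM in Ctrl, SD, n = 3), followed by Ube2c (174 ± 10.1 FPKM in Ctrl, SD, n = 3), Birc5 (137 ± 13.3 FPKM in Ctrl, SD, n = 3) and Anln (126 ± 7.93 FPKM in Ctrl, SD, n = 3). These 4 kept their ranks in KO1 and KO2, and in Ctrl Birc5 and Anln lay within 1 SD of Birc5 of each other. Gtse1 was the lowest in every group (8.56 FPKM in Ctrl). Ndc80 was at rank 13 of 40 in Ctrl, 8 in KO1 and 26 in KO2, and Kif20a at rank 18 in Ctrl, 17 in KO1 and 10 in KO2. Most neighbours in the order lay closer together than their SDs.

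The remaining genes of the pathway were taken from lists written with earlier results of these data known. Among 23 transcriptional regulators of the cell cycle, 5 were higher and 4 lower in KO2, and 0 higher and 4 lower in KO1. In KO2 these were 21.7% and 17.4%, against 24.6% and 29.5% of all tested genes, so neither share exceeded that over all genes. In KO1 they were 0% and 17.4%, against 15.6% and 14.9%. Mybl2, which encodes B-Myb, was at 109.7, 114 and 103 CPM in Ctrl, 88.6, 96.8 and 103 CPM in KO1, and 187, 173 and 185 CPM in KO2. It was higher in KO2 (log2 fold change 0.74, edgeR adjusted p = 1.02e-05), and its KO1 value of -0.18 did not pass (edgeR adjusted p = 0.0941). Foxm1 was at 162.5, 148 and 156 CPM in Ctrl, 120.5, 165 and 155 CPM in KO1, and 216, 224 and 242 CPM in KO2. It too was higher in KO2 (0.55, edgeR adjusted p = 0.00113) and did not pass in KO1 (-0.08, edgeR adjusted p = 0.581). Of the 5 MuvB subunits, Lin54 (-0.27, edgeR adjusted p = 0.0442) and Rbbp4 (-0.20, edgeR adjusted p = 0.0144) were lower in KO2, Lin52 was lower in KO1 (-0.60, edgeR adjusted p = 0.000817), and Lin9 (-0.01) and Lin37 (0.35, edgeR adjusted p = 0.0551) did not pass in KO2. E2f3, an activator of S phase genes, was lower in both lines (-0.55 in KO1 and -0.23 in KO2, edgeR adjusted p = 0.000502 and 0.0358). E2f1 (0.51, edgeR adjusted p = 0.0104) and E2f8 (0.65, edgeR adjusted p = 0.00379) were higher in KO2. In KO1 they stood at -0.08 and -0.29 and did not pass. E2f2 was lower in KO1 (-0.79, edgeR adjusted p = 0.00021) and did not pass in KO2 (-0.14). The largest KO2 change of the 23 was that of Rb1 (-0.91, edgeR adjusted p = 3.5e-05), which did not pass in KO1 (0.06). Of the NF-Y subunits, Nfya was higher in KO2 (0.66, edgeR adjusted p = 0.000114), while Nfyb and Nfyc (0.03 each) did not pass there.

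Other genes of G2 and mitosis outside the 40 showed smaller medians in KO2. Over all tested genes, 24.6% were called higher and 29.5% lower in KO2, and 15.6% and 14.9% in KO1. Of 31 further spindle, motor and cytokinesis genes, 21 were higher and 2 lower (median log2 fold change 0.45), and in KO1 3 and 2 (0.05). Racgap1, the partner of Kif23 in centralspindlin, was higher in both lines (0.53 in KO1 and 0.47 in KO2). Of 13 further genes of mitotic entry control, 9 were higher and 0 lower in KO2 (median 0.30), and in KO1 2 and 1 (0.07). Chek2 (0.48 in KO1 and 0.89 in KO2) and Cdkn1b (0.35 and 0.25), both of that list, were higher in both lines. Of 36 further kinetochore and checkpoint genes, 16 were higher and 2 lower in KO2 (median 0.20), and in KO1 2 and 3 (0.02). Mis12, a kinetochore subunit, was lower in both lines (-0.71 in KO1 and -0.24 in KO2). Cenpl, of the same list, was higher in both (0.34 in KO1 and 0.75 in KO2). Of 19 cohesin and condensin genes, 7 were higher and 3 lower in KO2 (median 0.16), and in KO1 2 and 4. The condensin subunit Smc2 was lower in both lines (-0.46 in KO1 and -0.21 in KO2). Ncaph2, also a condensin subunit, was higher in both (0.46 in KO1 and 0.44 in KO2).

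Of 19 genes of the anaphase-promoting complex and separase, 9 were higher and 2 lower in KO2 (median 0.18), and 3 and 2 in KO1 (0.04). In KO2 these were 47.4% and 10.5%, against 24.6% and 29.5% of all tested genes. In KO1 they were 15.8% and 10.5%, against 15.6% and 14.9%. Espl1, which encodes separase, was higher in both lines (0.58 in KO1 and 0.46 in KO2). Cdc27, a core subunit of the complex, was at 2074, 2071 and 2026 CPM in Ctrl, 238, 194.5 and 221 CPM in KO1, and 210.5, 209 and 209.7 CPM in KO2. Its log2 fold changes of -3.24 in KO1 (edgeR adjusted p = 6.13e-10) and -3.29 in KO2 (edgeR adjusted p = 1.35e-10) were larger than that of any of the 40. KO1 and KO2 overlapped, and both values rest on the same 3 Ctrl libraries.

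Genes of the preceding phase were set beside them. Of 43 genes of G1/S and DNA replication, 32 were higher and 2 lower in KO2 (median log2 fold change 0.36), and 3 higher and 5 lower in KO1 (-0.09). In KO2 these were 74.4% and 4.65%, against 24.6% and 29.5% of all tested genes. In KO1 they were 6.98% and 11.6%, against 15.6% and 14.9%. Pcna, the replication clamp, had 0.72 in KO2 (edgeR adjusted p = 0.000427), and Cdc45, a subunit of the replicative helicase, 0.50 (edgeR adjusted p = 9.76e-05). Ccne1 and Ccne2, the cyclins of the entry into S phase, were lower in both lines (-0.85 and -0.69 in KO1, -0.56 and -0.44 in KO2). The summed CPM of this list was 0.946 of Ctrl in KO1 (exact permutation test, two-sided p = 0.5, n = 3 each) and 1.28 of Ctrl in KO2 (exact permutation test, two-sided p = 0.1, n = 3 each). Genes of both phases were thus higher in KO2 by these counts, and the difference between the lists was not tested.

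**Figure D5:**
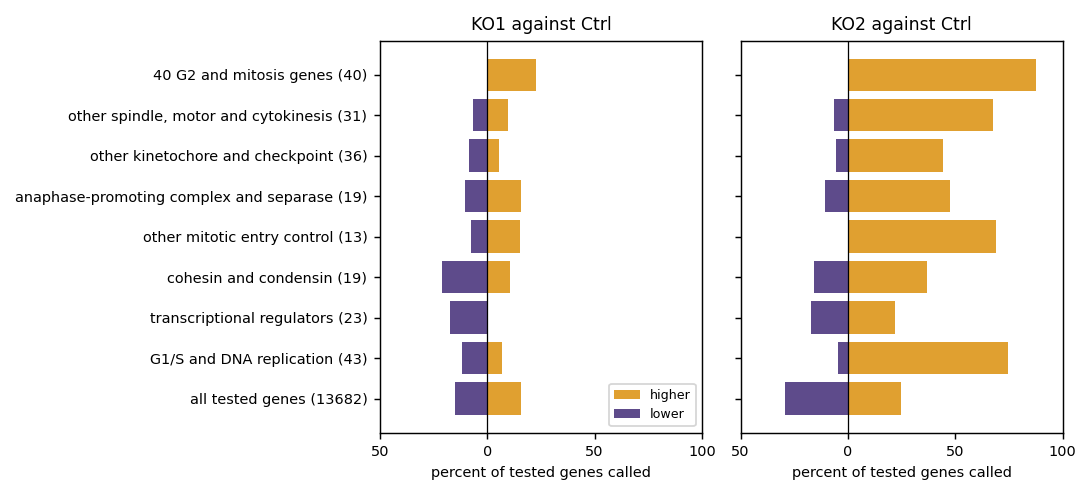
Percent of each list called higher and lower against Ctrl in KO1 and KO2 (edgeR adjusted p under 0.05), with bars to the right for higher and to the left for lower, for the 40 genes, 7 lists of other cell cycle genes and all tested genes. In KO2 the 40 genes (87.5% higher) are followed by the G1/S list (74.4%), against 24.6% of all tested genes.

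The 40 genes lie on 17 chromosomes, at most 8 on one. Chromosomes differed in the share of genes called higher in KO2. On chromosome 2, 38.7% of 1039 tested genes were higher (median log2 fold change 0.14), and 8 of 8 members there were higher. On chromosome 11 it was 39.6% of 1070 (median 0.16), with 4 of 4 members. Among these 17 chromosomes the share was largest on chromosome 18, at 43.2% of 324 (median 0.22). Both members there, Kif20a (log2 fold change 1.07, the largest of the 40) and Cdc25c (0.94), were higher. On chromosome 4, by contrast, 7.62% of 814 tested genes were higher (median -0.33), and 1 of 2 members, Cdc20, was higher and Kif2c was not. On chromosomes 7 and 13, where the medians were -0.15 and -0.22, 2 of 2 and 2 of 2 members were higher in KO2. On chromosome 14, where the median was -0.23, 0 of 1 member was higher (Dlgap5).

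The files also give, per gene and library, a transcript length weighted by the estimated share of each isoform. It varied between libraries for 20 of the 40 genes. A limma fit on log2 length, added after seeing the data, called 0 members in KO1 (4 had an unadjusted p under 0.05) and 2 in KO2, against 0.719% and 6.31% of the 6541 genes with a varying length. Top2a was at 5304.4 ± 4.88 bases in Ctrl, 5318.1 ± 3.53 in KO1 and 5341.5 ± 6.24 in KO2 (SD, n = 3 each), 37.2 bases longer in KO2 than in Ctrl (limma adjusted p = 0.00616). Kif23 was at 3239.1 ± 6.76 bases in Ctrl, 3268.4 ± 15.6 in KO1 and 3281.9 ± 10.5 in KO2 (SD, n = 3 each), 42.7 bases longer in KO2 (limma adjusted p = 0.0453), and 29.3 bases longer in KO1, which did not pass (limma adjusted p = 0.328). Between the lines, Top2a was 23.4 bases longer in KO2 (limma adjusted p = 0.0289) and Ect2 15.3 bases longer (limma adjusted p = 0.0422), 2 of the members against 6.38% of genes. These shifts are small beside the lengths and rest on estimated isoform shares.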

How the data were processed

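Gene expression was measured by paired-end RNA sequencing of total RNA on the BGISEQ-500 platform in 9 libraries, per the labels' protocols. HISAT, RSEM and the builds mm10 and GRCm38 are named, without versions, per the submitters' processing notes. The authors deposited, per library and gene, an expected count that is not normalised, FPKM scaled by length and depth, and a transcript length weighted by isoform. Whether counting used strand is not given in the sources used here, so overlapping genes may share reads. The deposited tables list genes from an FPKM of 0.01, and an unlisted gene was taken as 0.

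Samples were grouped by their titles. The record's design text gives the sixth and ninth samples other replicate numbers than the titles, 1 of them a number used for another sample. The members and lists were chosen with earlier results of these data known. Expected counts were rounded and put through the quasi-likelihood test of edgeR 4.0.16 (R 4.3.3; robust fit after filterByExpr and TMM, all 9 libraries, 1 coefficient per group, 6 residual degrees of freedom), and p-values were adjusted over 13682 genes. The threshold for a call was 0.05. CPM are after TMM scaling (factors 0.95 to 1.036). Each SE is approximate, being the absolute change divided by the root of its F value. The common biological coefficient of variation was 11.1%.

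Values in every library are given by a rule for members called in both lines, the 5 with the largest change per contrast and the smallest p per role, and also for Cdk1, Mki67 and Dlgap5, added after seeing the values. Other cell cycle genes named are Mybl2, Foxm1 and genes called in the same direction in both lines. The MuvB and NF-Y subunits, E2f1, E2f2, E2f8, Rb1, Pcna and Cdc45 were added after seeing the values. Alternatives were 3 other scalings (DESeq2 size factors, upper quartile, total count), 2 other filters (none, or at least 1 CPM in 3 libraries), DESeq2 1.42.0 and limma-voom as tools (limma was version 3.58.1), log2(FPKM + 1) or log2(FPKM + 0.1) in limma, the 2 groups alone, a replicate block and leaving out each library. The steps were tested on simulated data. Libraries with the same replicate number had correlations of their deviations across genes from -0.34 to 0.05, so they were treated as unpaired. Replicates differed by more than counting noise (chi-square per gene 8.1 to 60.43).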

Additional observations from a re-analysis of the deposited data

Results flagged for a closer look

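The change in KO2 differed from the change in KO1 by the edgeR test of KO2 against KO1 for 27 of the 40 genes, where both changes are measured from the same controls. In the cyclin group, the differences on the log2 scale were 0.59 for Cdk1, 0.75 for Ccnb1, 0.54 for Ccnb2, 0.34 for Ccna2, 0.64 for Cks2, 0.54 for Cdc25b and 0.55 for Cdc25c. In the kinase group they were 0.83 for Plk1, 0.54 for Aurka, 0.40 for Aurkb, 0.55 for Nek2 and 0.39 for Birc5. The checkpoint and anaphase genes Bub1, Bub1b and Ube2c had 0.26, 0.46 and 0.70. At the kinetochore, Cenpa had 0.57 and Ndc80 -0.50, the 1 difference towards KO1. The motors Kif20a and Kif20b had 0.90 and 0.34. The spindle proteins Nusap1, Hmmr, Ckap2, Aspm and Gtse1 had 0.54, 0.51, 0.59, 0.56 and 0.57. Anln had 0.47, Ect2 0.26 and Mki67 0.50. Of all tested genes, 55.0% differed between the lines by the same test.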

How the results depend on the processing

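No main result reversed under any alternative run. The median log2 fold change of the 40 genes in KO2 was 0.50 with total count scaling, 0.49 on log2(FPKM + 1) and 0.50 on log2(FPKM + 0.1). For KO2 against KO1 it was 0.32, 0.325 and 0.33 in that order. Total count scaling moved the median of all genes to -0.11 in KO2 and to -0.13 between the lines, and the share of calls that were higher from 45.5% to 35.8% and from 46.4% to 33.4% (35.5% and 33.2% on log2(FPKM + 0.1)). The members higher were then 10 in KO1, 30 in KO2 and 21 between the lines. Without TMM the ratio of summed CPM was 1.35 in KO2 and 1.17 between the lines, and 1.2 between the lines as summed FPKM. With one library left out at a time, 7 to 12 members were higher in KO1, 31 to 36 in KO2 and 23 to 27 between the lines. Lower were 0 to 1, 0 and 1. Medians then ran from 0.06 to 0.18, 0.50 to 0.61 and 0.37 to 0.56. The summed ratio in KO2 ran from 1.36, with Ctrl replicate 2 left out, to 1.49, with Ctrl replicate 1 left out, and between the lines from 1.22 to 1.31 (KO1 replicates 1 and 2 left out). With the replicate number as a block, 7 members were higher in KO1, 33 in KO2 and 24 between the lines, 0, 0 and 1 were lower, and 3365, 6726 and 6829 genes were called in all. Under every alternative, 7 of 9 calls among the members held in KO1, 30 of 35 in KO2 and 22 of 27 between the lines. The causes of these shifts were not tested. The number of libraries, 3 per group, limits the precision, since the exact test cannot go under 0.1.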
